A study of Homo sapiens with 6 samples.

Results

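Hyaluronan is a long, unsulfated sugar polymer of the extracellular matrix. It is spun out through the plasma membrane by the hyaluronan synthases HAS1, HAS2 and HAS3 from UDP-glucuronic acid and UDP-N-acetylglucosamine. Hyaluronidases of the HYAL family cut it, and CEMIP and TMEM2, which are related to each other, also take part in its breakdown. CD44 is its main cell surface receptor. In epithelial tumors, the size and amount of hyaluronan around the cells are known to bear on adhesion, motility and inflammation.

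Expression of 10 genes of this system was measured in RL95-2, a human cell line from an endometrial carcinoma. The genes were picked by symbol from the 23228 genes in the count tables, and all 10 symbols were present. KIAA1199 is the older symbol of CEMIP, and TMEM2 that of CEMIP2. They were chosen after the change of each gene with ADP-CM had been seen, so their values in that contrast are given below as a description, without p-values, and nothing is inferred from how many of them were called.

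The 3 control libraries came from cells kept for 24 h in serum-free RPMI mixed 1:1 with DMEM. The 3 ADP-CM libraries came from cells kept for the same time in serum-free RPMI mixed 1:1 with ADP-CM, DMEM conditioned by mature human adipocytes. All cells had been grown in RPMI with 10% FBS, carried no transgene named in the labels, and belong to 1 cell line, and the labels do not say whether the replicates were separate cultures or how many adipocyte preparations were used. The spread between replicates may therefore be technical.

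The libraries held 16262614 to 18363033 reads assigned to genes. All 8 epithelial markers looked up (EPCAM, CDH1, KRT7, KRT8, KRT18, KRT19, PAX8 and MUC1) had at least 10 reads in every library. Their summed level was 5608 to 5762 CPM in control and 4916 to 5015 CPM in ADP-CM, mostly KRT7, KRT8 and KRT18. Mean CPM in control and ADP-CM was 1843 and 1438 for KRT8, 1508 and 1378 for KRT18, and 1560 and 1503 for KRT7. KRT19 (268 and 149) and CDH1 (163 and 122) were also lower. EPCAM was at 200 and 201 CPM, while PAX8 (150 and 182) and MUC1 (0.953 and 2.31) were higher. Adipocyte markers were near 0, with no more than 11 reads of any of the 8 in any library and none of ADIPOQ or LEP (summed 0.801 to 1.18 CPM in control, 0.994 to 1.30 in ADP-CM). Of 8 stromal markers 2 had at least 10 reads in every library, COL1A1 and COL3A1, and of 8 leukocyte markers 2, CD68 and ITGAM. The summed stromal level was 61.5 to 68.4 CPM in control and 78.3 to 79.2 in ADP-CM, nearly all of it COL1A1, while COL1A2, DCN, PDGFRA and THY1 had at most 2 reads in any library. The summed leukocyte level was 8.42 to 9.68 and 10.9 to 13.2 CPM, mostly CD68, and PTPRC had at most 1 read. The part of the epithelial, stromal and leukocyte sums in the results below was not tested. In bulk RNA, more expressing cells and more RNA per cell cannot be told apart.

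Of the 10 genes, 8 had enough reads to be compared by edgeR's quasi-likelihood test. CPM here is the read count scaled to library size, after TMM normalization between libraries. With ADP-CM, KIAA1199 was 2.56-fold, HAS3 1.55-fold, CSGALNACT1 1.52-fold, CD44 1.35-fold and TMEM2 1.19-fold higher, and these 5 passed an adjusted p-value of 0.01. UGDH, HYAL2 and HYAL3 did not pass it, and HAS2 and HYAL1 had too few reads to be tested. Over all 12663 tested genes, 26.5% passed, 13.5% as higher and 13% as lower. A fold change over 1.5 in addition was reached by 3 of the 8, KIAA1199, HAS3 and CSGALNACT1, against 2.27% of all tested genes (1.14% in each direction). For 6 of the 8 all ADP-CM libraries lay above all control libraries, as they did for 22.7% of all tested genes, with 22.8% the other way around (45.5% without overlap in all). The median log2 fold change was 0.35 for the 8 genes and -0.0023 for all tested genes.

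**Figure D1:**
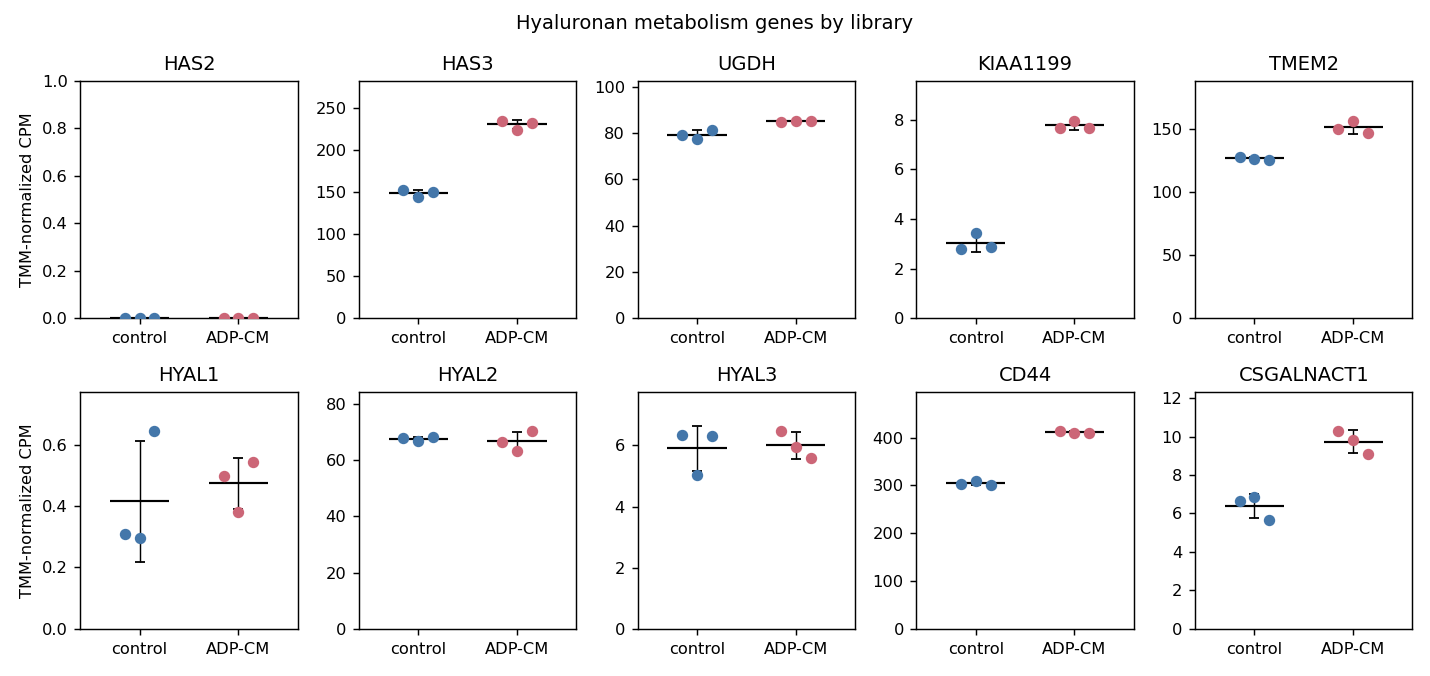
TMM-normalized CPM of the 10 genes in each of the 6 libraries, 1 panel per gene, with a linear axis from 0; points are libraries, horizontal bars group means and vertical bars SD (n = 3 each). The groups are apart for HAS3, UGDH, KIAA1199, TMEM2, CD44 and CSGALNACT1, they overlap for HYAL1, HYAL2 and HYAL3, and HAS2 is at 0 throughout.

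HAS3 was the only hyaluronan synthase with more than a few reads in these cells, and it was higher in every ADP-CM library. The gene lies on chromosome 16, 69139556 to 69152622 (GRCh37, + strand). Its level was 152, 144 and 150.2 CPM in control replicates 1, 2 and 3, from 2465, 2438 and 2569 reads. In ADP-CM replicates 1, 2 and 3 it was 235, 224 and 233 CPM, from 4256, 4112 and 4279 reads. The lowest ADP-CM library was 1.48 times the highest control library. Mean CPM went from 149 ± 3.96 to 231 ± 5.69 (SD, n = 3 each), or 0.63 in log2 units (standard error 0.028, 95% interval 0.58 to 0.69). Of the exonic bases of HAS3 7.02% lie opposite CHTF8 and DERPC, and the strand setting of the counting is not given in the sources used here.

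HAS2, the synthase most studied in stroma and mesenchyme, had 0 reads in all 6 libraries. The limit of 3 reads that a count of 0 allows corresponds to 0.163 to 0.185 CPM depending on the library, for counting error only. HAS1 had 1, 0 and 1 reads in control and 2, 0 and 0 reads in ADP-CM. No difference between the groups was detectable for either synthase at this depth.

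UGDH, which oxidizes UDP-glucose to UDP-glucuronic acid and so feeds all hyaluronan synthases, differed little. It lies on chromosome 4, 39500375 to 39529931 (GRCh37, - strand). Control replicates 1, 2 and 3 had 79.1, 77.6 and 81.3 CPM, and ADP-CM replicates 1, 2 and 3 had 84.8, 85.4 and 85.1 CPM. The groups did not overlap, but the lowest ADP-CM library was only 1.04 times the highest control library. The means were 79.4 ± 1.87 and 85.1 ± 0.304 CPM (SD, n = 3 each), and the log2 difference of 0.10 (95% interval 0.030 to 0.17) missed the adjusted p-value limit of 0.01. UGDH would be the only further gene of the 10 to pass with the limit at 0.05. It missed this limit as well in DESeq2 and without control replicate 1, without control replicate 2 or without ADP-CM replicate 1. Of its exonic bases 12.7% lie opposite UGDH-AS1.

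KIAA1199 had the largest fold change of the 8 tested genes, and its paralog TMEM2 had a small one. KIAA1199 (CEMIP) binds hyaluronan and is needed for its breakdown in several cell types, and TMEM2 is a membrane protein of the same family described as a cell surface hyaluronidase. KIAA1199 lies on chromosome 15, 81071684 to 81244117 (GRCh37, + strand), and TMEM2 on chromosome 9, 74298282 to 74431606 (- strand). The upstream sequences of both, and that of HAS3, are shown because these are the most changed gene, its paralog and the only synthase detected with more than 2 reads in a library. They are the 250 bases before the annotated start, 5′ to 3′ on the gene's strand, from RefSeq on GRCh38.p14. Capitals mark TATAAA, the core of a TATA box, and GGGCGG or its reverse complement CCGCCC, a GC box.
KIAA1199, chr15:80779120-80779369, + strand: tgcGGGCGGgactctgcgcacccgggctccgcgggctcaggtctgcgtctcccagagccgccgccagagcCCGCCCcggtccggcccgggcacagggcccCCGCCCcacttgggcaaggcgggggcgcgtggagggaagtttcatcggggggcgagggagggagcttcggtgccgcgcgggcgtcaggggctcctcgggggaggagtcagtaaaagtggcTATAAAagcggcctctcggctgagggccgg
TMEM2, chr9:71768514-71768763, - strand: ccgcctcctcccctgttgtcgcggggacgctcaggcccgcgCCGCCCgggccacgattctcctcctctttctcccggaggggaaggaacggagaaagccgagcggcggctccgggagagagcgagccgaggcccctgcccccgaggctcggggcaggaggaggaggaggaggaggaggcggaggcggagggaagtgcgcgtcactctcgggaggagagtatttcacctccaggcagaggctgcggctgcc
HAS3, chr16:69107290-69107539, + strand: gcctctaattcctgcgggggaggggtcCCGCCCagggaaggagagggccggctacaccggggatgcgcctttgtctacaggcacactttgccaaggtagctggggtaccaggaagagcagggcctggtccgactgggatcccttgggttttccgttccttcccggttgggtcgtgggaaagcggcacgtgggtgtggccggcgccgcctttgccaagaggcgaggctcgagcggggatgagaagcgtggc

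KIAA1199 has TATAAA with its first base at position -30 before the start, and it was the only one of the 8 genes with a promoter entry to hold these letters. A window of 300 bases around the start (250 before and 50 after) holds TATAAA on either strand in 11.5% of 35116 promoters in the table. The GC box letters were found in 7 of the 8 genes, all but HYAL2, and in 44.95% of all promoters. The letters TTCNNNGAA of STAT sites, TGANTCA of AP-1 and a motif of NF-kB were in none of the 9 windows of the 8 genes, counting both strands, and in 7.66%, 7.71% and 1.91% of all promoters. These matches describe the windows only, and the count tables do not show which start was used.

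KIAA1199 had 45, 58 and 49 reads in control replicates 1, 2 and 3 and 139, 146 and 141 reads in ADP-CM replicates 1, 2 and 3. These are 2.77, 3.43 and 2.87 CPM against 7.68, 7.96 and 7.67 CPM. Every ADP-CM library was more than 2.2 times any control library. The means were 3.02 ± 0.358 and 7.77 ± 0.167 CPM (SD, n = 3 each), which is 1.36 in log2 units (standard error 0.14, 95% interval 1.08 to 1.63). At this depth counting alone gives a coefficient of variation of 14.0% in control and 8.39% in ADP-CM, and the replicates varied by 11.8% and 2.15%. The spread of KIAA1199 between replicates was thus no larger than that of read counting, and its fold change is the least precise of the called genes. Of its exonic bases 2.94% lie opposite other genes.

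TMEM2 had 128, 126 and 125 CPM in control replicates 1, 2 and 3, from 2071, 2134 and 2146 reads. It had 149.7, 157 and 147 CPM in ADP-CM replicates 1, 2 and 3, from 2711, 2871 and 2702 reads. The groups did not overlap, with the lowest ADP-CM library at 1.15 times the highest control library. Means of 127 ± 1.08 and 151 ± 4.96 CPM (SD, n = 3 each) differed by 0.26 in log2 units (standard error 0.030). The 95% interval of TMEM2 was 0.20 to 0.32. A difference between TMEM2 and KIAA1199 was not tested, as both were chosen with this contrast known.

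**Figure D2:**
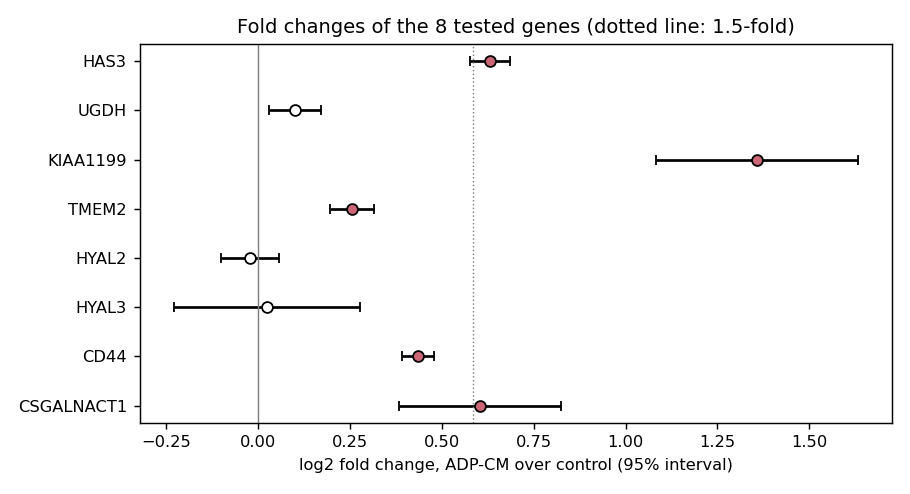
Log2 fold change of ADP-CM over control for the 8 tested genes, with 95% intervals from the edgeR fit; filled points passed an adjusted p-value of 0.01 and the dotted line marks a fold change of 1.5. KIAA1199 lies at 1.36, HAS3, CSGALNACT1, CD44 and TMEM2 lie between 0.26 and 0.63, and the intervals of HYAL2 and HYAL3 include 0.

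The HYAL genes did not differ detectably. HYAL1, HYAL2 and HYAL3 encode hyaluronidases of the same family and lie beside each other on chromosome 3, between 50330262 and 50360213 (GRCh37, - strand). HYAL2, a lipid-anchored enzyme that cuts long hyaluronan into fragments, was by far the most abundant. Its level was 67.9, 67.0 and 68.1 CPM in control and 66.4, 63.4 and 70.3 CPM in ADP-CM replicates 1, 2 and 3. The ADP-CM libraries lay on both sides of the control libraries. The log2 fold change was -0.021, and its 95% interval of -0.10 to 0.059 spans changes of -6.75% to 4.14%. Of its exonic bases 11.5% are shared with TUSC2 on the same strand.

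HYAL3 had 103, 85 and 108 reads in control and 117, 109 and 103 reads in ADP-CM, or 5.90 ± 0.750 and 6.002 ± 0.434 CPM (SD, n = 3 each). The groups overlapped, and the 95% interval of the log2 fold change, -0.23 to 0.28, spans changes of -14.6% to 21.3%. HYAL3 shares 14.0% of its exonic bases with IFRD2 and NAA80 (NAT6 in the count tables) on the same strand. HYAL1, the lysosomal enzyme that degrades the fragments further, had 5, 5 and 11 reads in control and 9, 7 and 10 in ADP-CM, which overlap. Without a filter on low counts its log2 fold change was 0.18 (standard error 0.49), so a difference was not detectable at this depth. HYAL4 had 1 read in all 6 libraries together, and SPAM1, the sperm hyaluronidase, had 0.

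Among the neighbours of the HYAL genes, which were looked at because the cluster is dense and exons overlap, 9 genes were tested. In edgeR 0 of them rose and 2 fell past the adjusted p-value of 0.01 (1 higher and 2 lower at an unadjusted p under 0.05), and DESeq2 called 0 higher and 0 lower. These 2 are 22.2% of the 9, near the 26.5% called among all tested genes. The median log2 fold change was -0.00061. TMEM115 fell from 59.9 ± 1.36 to 53.7 ± 0.488 CPM and GNAI2 from 128 ± 2.62 to 118 ± 0.437 CPM (SD, n = 3 each), at edgeR adjusted p values of 0.00186 and 0.00317. TMEM115 lost its call without control replicate 1 (edgeR adjusted p 0.0137), without control replicate 2 (0.0119) and without ADP-CM replicate 1 (0.0102). GNAI2 lost it without control replicate 1 (edgeR adjusted p 0.0274), without control replicate 3 (0.0155) and without ADP-CM replicate 1 (0.0126). NAT6, IFRD2 and TUSC2, which touch HYAL3 or HYAL2, had log2 fold changes of 0.17, 0.073 and -0.036 and did not pass.

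CD44, the main hyaluronan receptor, was the most abundant of the 10 genes in reads and was higher in every ADP-CM library. It lies on chromosome 11, 35160429 to 35253949 (GRCh37, + strand). Control replicates 1, 2 and 3 had 302, 309 and 302 CPM, and ADP-CM replicates 1, 2 and 3 had 413, 411 and 410.2 CPM. The groups were well apart, with a spread of 1.31% in control and 0.425% in ADP-CM around means of 304 ± 3.99 and 411 ± 1.75 CPM (SD, n = 3 each). The log2 difference was 0.44 (standard error 0.022, 95% interval 0.39 to 0.48), short of 1.5-fold. CD44 is spliced into many isoforms, and gene counts do not separate them.

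CSGALNACT1 starts chondroitin sulfate chains, a sulfated relative of hyaluronan carried on proteoglycans, by adding the first N-acetylgalactosamine to the linker. It lies on chromosome 8, 19261672 to 19615540 (GRCh37, - strand). It had 108, 116 and 97 reads in control replicates 1, 2 and 3, or 6.66, 6.87 and 5.67 CPM. In ADP-CM replicates 1, 2 and 3 it had 186, 180 and 167 reads, or 10.3, 9.82 and 9.08 CPM. The groups did not overlap, and the lowest ADP-CM library was 1.32 times the highest control library. Means of 6.40 ± 0.639 and 9.72 ± 0.603 CPM (SD, n = 3 each) differed by 0.60 in log2 units (standard error 0.11, 95% interval 0.38 to 0.82). It passed the adjusted p-value of 0.01 whichever library was left out, but its fold change fell under 1.5 without control replicate 3 (log2 0.52) or ADP-CM replicate 1 (log2 0.56). Its paralog CSGALNACT2, which catalyzes the same step, averaged 37.8 ± 1.82 and 37.4 ± 0.877 CPM (SD, n = 3 each), -0.013 in log2 units with a 95% interval of -0.12 to 0.090 (edgeR adjusted p 0.870).

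Levels can be set side by side between genes only per length, here as RPKM, the TMM-normalized CPM per kilobase of all annotated exons of a gene. Exon lengths came from GENCODE while reads were counted on RefSeq, so the order of levels may differ on RefSeq lengths. In control, CD44 had 30.4 ± 0.399 RPKM, HAS3 28.6 ± 0.762, UGDH 19.7 ± 0.464, HYAL2 15.3 ± 0.139 and TMEM2 13.7 ± 0.117 (SD, n = 3 each). HYAL3 followed with 3.00 ± 0.381, CSGALNACT1 with 0.839 ± 0.0837, KIAA1199 with 0.397 ± 0.0470 and HYAL1 with 0.135 ± 0.0639 RPKM. KIAA1199 was thus a low gene, and it remained one in ADP-CM at 1.02 ± 0.0220 RPKM, below CSGALNACT1 at 1.27 ± 0.0789.
In ADP-CM, HAS3 stood first at 44.4 ± 1.09 RPKM and CD44 second at 41.2 ± 0.175, while TMEM2 (16.3 ± 0.536) and HYAL2 (15.1 ± 0.786) did not differ beyond their spread. The order of HAS3 and CD44 in ADP-CM depended on the length used, as did that of TMEM2 and HYAL2 in control. With the longest annotated transcript in place of all exons, CD44 was above HAS3 in both groups (75.7 and 54.7 RPKM in ADP-CM), and TMEM2 was above HYAL2 in both groups (20.6 and 16.7 RPKM in control). The ranks of the other genes were the same with either length.

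**Figure D3:**
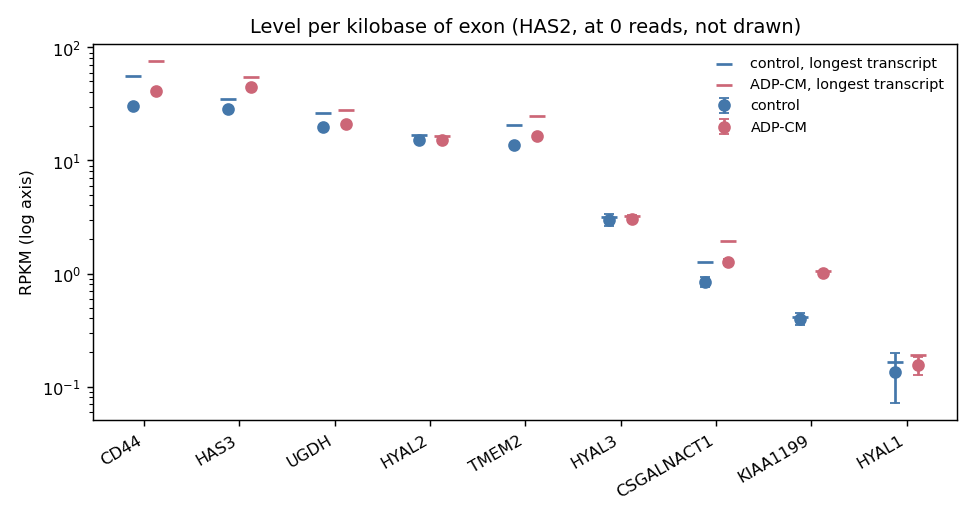
RPKM of 9 genes on a log axis, in the order of their control level; points are means over 3 libraries on the length of all annotated exons with SD bars, and short lines are the means on the longest transcript. HYAL3, CSGALNACT1, KIAA1199 and HYAL1 lie at 3.05 RPKM or below in both groups, and the other 5 genes lie at 13.7 RPKM or above.

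The genes whose profile over the 6 libraries lay nearest to that of KIAA1199 were TGM2, ITGB6, ISG15 and ACCN2, at distances of 0.227, 0.256, 0.283 and 0.376. The measure is the Euclidean distance between log2 CPM values centred on each gene's mean, over 12136 other genes with a mean of at least 1 CPM. All of these profiles share the same libraries, and with 2 groups a small distance mostly reflects a like difference between them. TGM2, a transglutaminase that crosslinks matrix proteins, went from 20.9 ± 0.326 to 54.7 ± 2.00 CPM (SD, n = 3 each). ACCN2, a subunit of acid-sensing ion channels, had 1.65 ± 0.306 and 3.995 ± 0.323 CPM. ITGB6, an epithelial integrin subunit, had 9.38 ± 0.119 and 22.4 ± 0.615 CPM, and ISG15, an interferon-induced ubiquitin-like protein, 3.00 ± 0.357 and 7.24 ± 0.443 CPM (SD, n = 3 each).

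The wider pathway changed by small steps. Of 97 further genes in 6 lists (precursor supply, other synthesis and breakdown enzymes, other binding proteins, CD44 partners, chondroitin sulfate and heparan sulfate synthesis) 62 were tested, and 10 rose and 16 fell past the adjusted p-value limit of 0.01 in edgeR. These are 41.9% of the 62, beside 26.5% of all tested genes. Their median log2 fold change was -0.037, and 1 gene, EXTL2, passed a fold change of 1.5. The number that rose was 5 without control replicate 2, 6 without control replicate 3 and 5 without ADP-CM replicate 1, while the number that fell stayed between 15 and 16 whichever library was left out.

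**Figure D4:**
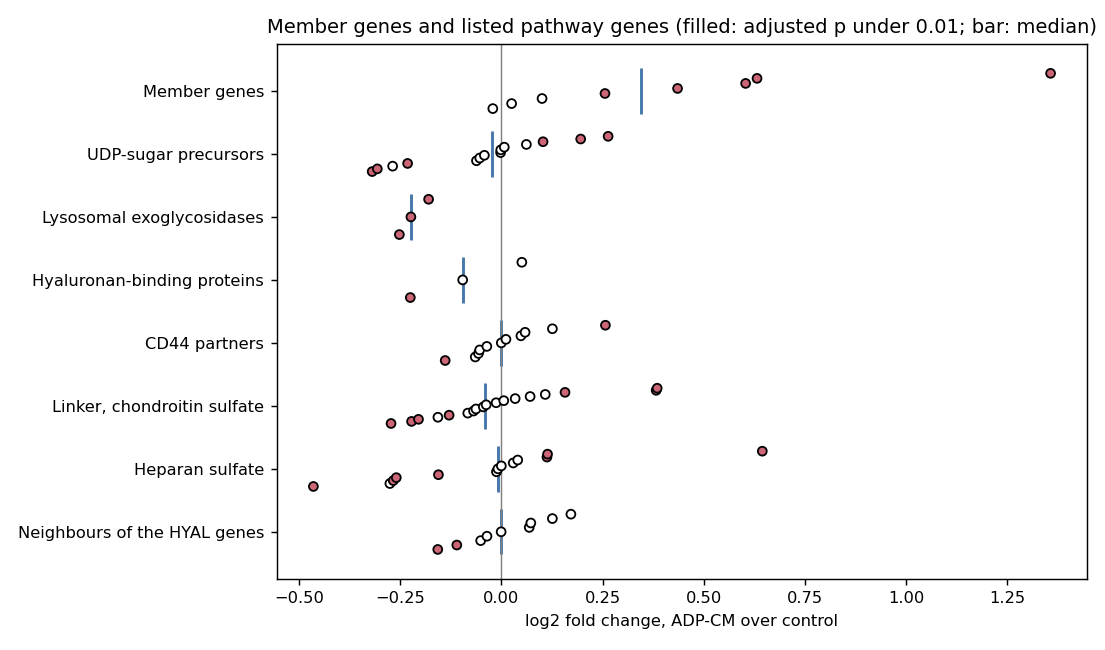
Log2 fold change of ADP-CM over control for the 8 tested member genes and for the tested genes of each list, 1 point per gene; filled points passed an adjusted p-value of 0.01 and blue bars are medians. The median of the member genes is 0.35, and the medians of the lists lie between -0.22 and -0.00023. The member genes were chosen with this contrast known, so nothing is inferred from their median beside those of the lists.

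Of the 14 listed genes of UDP-sugar supply, use and transport, 3 rose and 3 fell in edgeR. These are 42.9% of the list, beside 26.5% of all tested genes. UAP1, which makes UDP-N-acetylglucosamine in the last step of the hexosamine pathway, rose from 150.5 ± 4.31 to 181 ± 8.91 CPM (SD, n = 3 each), 0.26 in log2 units (edgeR adjusted p 7.53e-11). GNPNAT1 and UAP1L1, named after their values were seen, rose by 0.10 and 0.20 on the log2 scale in edgeR. DESeq2 called 1 of the 14 as raised, UAP1. SLC35D1, which carries UDP-sugars into the endoplasmic reticulum, fell from 52.7 ± 2.98 to 42.3 ± 2.30 CPM (edgeR adjusted p 1.70e-07). NAGK, the salvage kinase for N-acetylglucosamine, and PGM2, a phosphoglucomutase, fell by 0.31 and 0.23 on the log2 scale. GFPT1, the rate-limiting enzyme of the hexosamine pathway, was at 138 ± 1.86 and 138 ± 6.17 CPM, and UGP2, which makes UDP-glucose, at 59.9 ± 2.43 and 57.3 ± 4.19 CPM (SD, n = 3 each), and neither passed. Both were also named after their values were seen.

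All 3 tested genes of lysosomal enzymes that trim hyaluronan fragments from their ends fell in edgeR. Over all tested genes 13% were called as lower, and 3 genes are too few to compare with that share. HEXA, which encodes a subunit of a lysosomal hexosaminidase, went from 138 ± 4.09 to 116 ± 4.29 CPM (SD, n = 3 each), or -0.25 in log2 units (edgeR adjusted p 1.44e-09). GUSB, beta-glucuronidase, went from 61.9 ± 3.57 to 54.6 ± 0.466 CPM (edgeR adjusted p 0.000516), but lost its call without control replicate 3 (0.0246). These enzymes act on other glycans as well.

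Most hyaluronan-binding proteins were not expressed at a testable level, 22 of 25. Of the 3 tested, too few to compare with the share of all tested genes, 1 was called. HMMR, a hyaluronan-binding protein that also acts on the mitotic spindle, fell from 56.4 ± 1.80 to 48.3 ± 1.79 CPM (SD, n = 3 each, edgeR adjusted p 3.36e-05). C1QBP lay higher in ADP-CM without overlap, at 428 ± 4.39 and 443 ± 4.49 CPM, but did not pass (edgeR adjusted p 0.0491). ITIH4, at 0.919 ± 0.200 and 0.857 ± 0.132 CPM, did not pass either. C1QBP and ITIH4 were named after their values were seen. LYVE1, STAB2, LAYN, TNFAIP6 and HAPLN1, among the classical receptors and crosslinkers, had 0 reads in all libraries, and VCAN, which encodes versican, had at most 1 read. Of the 11 tested CD44 partners, too few to set apart from the 26.5% of all tested genes, 1 rose and 1 fell (18.2%). Both are linkers between CD44 and actin. RDX (radixin), another such linker named after its values were seen, was at 235 ± 4.86 and 224 ± 4.40 CPM (SD, n = 3 each). Its ADP-CM libraries all lay below its control libraries, but it did not pass (edgeR adjusted p 0.0385). MSN (moesin) rose from 58.5 ± 2.57 to 69.96 ± 2.07 CPM and EZR (ezrin) fell from 579 ± 12.5 to 525 ± 8.53 CPM (SD, n = 3 each), at edgeR adjusted p values of 4.56e-07 and 7.58e-08. ESRP1, which regulates CD44 splicing in epithelial cells, was at 118 ± 1.21 and 118 ± 0.504 CPM and did not pass, and it was named after its values were seen.

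Of the 18 tested chondroitin sulfate genes besides CSGALNACT1, 3 rose and 4 fell in edgeR, while DESeq2 called 0 as raised and 3 as lowered. The edgeR calls are 38.9% of the 18, beside 26.5% of all tested genes. At an unadjusted p under 0.05 edgeR counted 5 higher and 6 lower. The sulfotransferases CHST11 and CHST7 rose by 0.39 and 0.38 on the log2 scale, from 6.96 ± 0.640 to 9.08 ± 1.04 and from 8.98 ± 0.879 to 11.7 ± 0.364 CPM (SD, n = 3 each). Their edgeR adjusted p values were 0.00449 and 0.000904. CHST11 lost its call without control replicate 2 (0.0175), without control replicate 3 (0.0389), without ADP-CM replicate 1 (0.0434) and without ADP-CM replicate 3 (0.0154), and CHST7 without control replicate 3 (0.0153). CHST14, which acts in dermatan sulfate synthesis, and CHPF, a chain polymerizing factor, fell by 0.27 and 0.22 on the log2 scale (edgeR adjusted p 1.14e-07 and 6.11e-07).

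Of 13 tested heparan sulfate genes 3 rose and 4 fell in edgeR, or 53.8% beside 26.5% of all tested genes. DESeq2 called 1 of the 13 as raised, EXTL2, and 4 as lowered. EXTL2, which transfers an N-acetylhexosamine to the linker, rose from 12.9 ± 0.740 to 20.2 ± 0.544 CPM (SD, n = 3 each), or 0.65 in log2 units (standard error 0.074, edgeR adjusted p 9.61e-11). HS6ST1, a 6-O-sulfotransferase, had the largest fall of this list, from 151 ± 1.69 to 109.7 ± 4.62 CPM (log2 fold change -0.46, edgeR adjusted p 7.82e-20). EXT2, a subunit of the chain polymerase, and HS3ST3B1, a 3-O-sulfotransferase, fell by 0.27 and 0.26 on the log2 scale.

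Leaving out each library in turn moved the log2 fold changes of the member genes little. KIAA1199 ranged from 1.30 (without control replicate 1) to 1.46 (without control replicate 2), HAS3 from 0.61 to 0.65, CD44 from 0.43 to 0.45, TMEM2 from 0.23 to 0.28 and CSGALNACT1 from 0.52 to 0.66. The sign of HYAL2 turned without ADP-CM replicate 2 (0.013) and that of HYAL3 without control replicate 2 (-0.078) or ADP-CM replicate 1 (-0.031), all within their intervals.

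**Figure D5:**
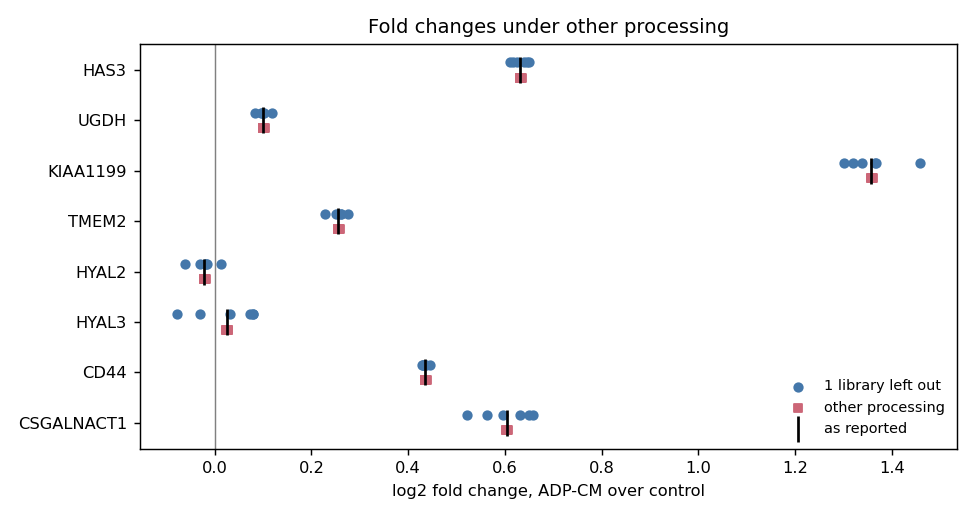
Log2 fold changes of the 8 tested genes as reported (black bars), with each of the 6 libraries left out (circles) and under 7 other ways of processing (squares). KIAA1199, HAS3, CD44, TMEM2, CSGALNACT1 and UGDH stay above 0 throughout, and HYAL2 and HYAL3 lie on both sides of 0.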

How the data were processed

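RNA was sequenced from 3 control and 3 ADP-CM samples of RL95-2 cells with a stranded poly(A) kit and 50 bp single reads. The authors aligned reads to hg19 with TopHat2, counted them with HTSeq using RefSeq annotation, and the deposited values are raw read counts of each gene. Program versions and the strand setting are not given in the sources used here. HTSeq summary lines were left out of library sizes and tests. The no-feature line made up 10.3% and 11.5% of all HTSeq counts in control and ADP-CM. In R 4.3.3, counts were scaled by TMM, filtered by filterByExpr (12663 of 23228 genes kept) and compared with the quasi-likelihood test of edgeR 4.0.16, adjusted by Benjamini-Hochberg over all tested genes. Calls used an adjusted p-value of 0.01, with or without a fold change of 1.5. Standard errors came from the F statistic. The fit was tested on simulated data.

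The members, lists and tests were chosen with earlier results of these data known. Named were all 10 members, the 4 called genes of each list with the largest change, the paralogs HAS1, HYAL4, SPAM1 and CSGALNACT2, and the 5 genes nearest to KIAA1199; of these, 2 genes are not reported here. The TATA and GC box letters were added after the promoters were seen. Positions and exon lengths came from GENCODE 44 on GRCh37, the same build as hg19, and promoters from RefSeq on GRCh38.p14. Exon overlaps with other genes also came from GENCODE, and may differ in the RefSeq annotation used for counting. The symbols KIAA1199 and TMEM2 were matched to CEMIP and CEMIP2 by RefSeq synonyms. Promoters were matched for 8 of the 10 members. Replicates of a group differed somewhat beyond sampling noise, with a chi-square per degree of freedom of 1.23 to 2.03 between pairs of libraries. This does not show whether they were separate cultures. Alternatives were DESeq2 size factors or plain library sizes, DESeq2 1.42.0, other filters, a robust fit, an adjusted p-value of 0.05, the replicate number as a term, and each library left out.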

Additional observations from a re-analysis of the deposited data

Results flagged for a closer look

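HTSeq's no-feature count, for reads overlapping no feature used in counting, lies outside the gene counts used here. Its share of all HTSeq counts, including non-unique alignments, was higher in ADP-CM, without overlap between the groups. The share was 11.5% ± 0.0331 against 10.3% ± 0.0528 in control (SD, n = 3 each). No read position is known from the count tables, so the share was not tied to any of the hyaluronan genes.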

How the results depend on the processing

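The 5 called member genes stayed called, in the same direction, under all 13 alternatives, and UGDH, HYAL2 and HYAL3 stayed below the limit in each. With an adjusted p-value of 0.05, 6 members passed, the sixth being UGDH. Scaling by DESeq2 size factors or plain library sizes moved the median of all genes by no more than 0.0030 on the log2 scale. DESeq2 called 1966 genes in place of 3357, 179 in place of 288 past 1.5-fold, and 3 of the pathway genes as raised in place of 10. The genes it did not call include GNPNAT1, UAP1L1, XYLT2, EXTL3, HS2ST1, GUSB, CHST11, CHST7, TMEM115 and GNAI2. The cause was not tested. Leaving out each library gave 2638 to 3206 genes, 256 to 288 past 1.5-fold, 2 to 3 members past 1.5-fold, and 5 to 9 raised and 15 to 16 lowered pathway genes.

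The deviations of same-numbered libraries correlated at 0.073, 0.014 and 0.097 across genes, and those of unlike-numbered libraries at -0.093 to 0.026. ADP-CM replicate 2 was nearer to control replicate 1 (0.026) than to control replicate 2. These small values do not settle whether the replicate numbers pair the samples. The replicate block gave 3502 genes (297 past 1.5-fold) and the same 5 members.

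On the length of the longest transcript, levels in control and ADP-CM were 56.0 and 75.7 RPKM for CD44, 35.3 and 54.7 for HAS3, 26.1 and 28.02 for UGDH, 20.6 and 24.6 for TMEM2, 16.7 and 16.4 for HYAL2, and 1.27 and 1.93 for CSGALNACT1. In ADP-CM they were 1.06 RPKM for KIAA1199 and 0.188 for HYAL1. Depth limits HAS1, HAS2 and HYAL1, with at most 11 reads in any library, and HYAL3, CSGALNACT1 and KIAA1199, for which read counting alone gives a spread of 7.502% or more.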
